A study of Homo sapiens with 4 samples.

Results

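The enzymes that make serine and pass its carbon to folate were followed in U87 MG, an established human glioblastoma cell line, after silencing of PELP1. PELP1 encodes a scaffold protein of nuclear receptor and ribosome assembly complexes. They are 9 genes of the 23228 symbols in the files: PHGDH, PSAT1 and PSPH of serine synthesis, SHMT1 and MTHFD1 of the cytosolic folate pathway, and SHMT2, MTHFD1L, MTHFD2 and ALDH1L2 of the mitochondrial one. The genes were chosen by enzyme function, with their read counts in this same comparison already known. Their changes with PELP1 siRNA are therefore given as a description, with fold changes and errors but no p-values.

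Both groups were U87 cells grown in DMEM with serum and transfected with oligofectamine, one with control siRNA (2 libraries) and the other with PELP1 siRNA (2 libraries). Total RNA was taken 72 hours later in all 4. The sources used here give neither the siRNA sequences nor whether the duplicates were separate cultures. Every p-value thus reflects the spread between these particular samples alone, possibly a technical one, and the design covers 1 cell line and 1 time. The fit shares the spread across genes, so each error, interval and p-value rests on more than the gene's own 4 values.

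Gene counts came to 18670162 to 22858988 per library. Neither pair agreed within sampling noise, since the counts of its libraries gave a chi-square per gene of 2.03 (control) and 6.80 (PELP1 siRNA). PELP1 stood at 74.0 and 78.1 CPM (counts scaled to library size by TMM) in the control libraries and at 15.2 and 17.7 CPM with PELP1 siRNA. All 8 markers set for U87 MG were detected at 1 CPM or more. Their summed level was 19351 to 19454 CPM in the control libraries and 16783 to 17292 CPM with PELP1 siRNA. Of the 8, 5 were lower and 1, SPARC, was higher at an adjusted p under 0.05. Markers of neurons came to 62.5 to 65.2 CPM in the control libraries and 49.3 to 51.2 CPM with PELP1 siRNA. Nearly all of that came from SNAP25, with means of 48.3 and 31.3 CPM, and SYT1, with 15.5 and 18.9 CPM. The immune list came to 420 to 428 and 386 to 423 CPM, nearly all from CD68. Oligodendrocyte, astrocyte, endothelial and epithelial lists each stayed under 4 CPM, and AIF1, CD3E, MOG and AQP4 were among those at 0. Their part in the results was not tested. In the PELP1 siRNA group 1712 of the 13234 genes tested were higher and 1980 lower, at an adjusted p under 0.05 (edgeR quasi-likelihood test, Benjamini-Hochberg adjustment). Scaling by total counts gave 2272 higher and 1597 lower, so that the lower share of these calls was 41.3% in place of 53.6%. The calls moved with single libraries: 523 higher and 943 lower without control library 1, 614 and 1075 without control library 2, 2724 and 2804 when PELP1 siRNA library 1 was dropped, and 2604 and 2629 when library 2 of that group was. DESeq2 called 1118 higher and 1406 lower.

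Cells make serine in the cytosol by turning aside the glycolytic intermediate 3-phosphoglycerate, which PHGDH oxidises, PSAT1 transaminates and PSPH dephosphorylates. A serine hydroxymethyltransferase, SHMT1 in the cytosol or SHMT2 in mitochondria, then splits serine into glycine and a one-carbon unit carried on tetrahydrofolate. In mitochondria MTHFD2 oxidises that unit and MTHFD1L releases it as formate, which leaves for the cytosol, where the multifunctional MTHFD1 loads it on folate again for purine and thymidylate synthesis. ALDH1L2 instead burns the mitochondrial unit to CO2 and makes NADPH. The pathway is known for feeding nucleotide synthesis in tumour cells, and the transcription factor ATF4 is known to induce several of its genes when amino acids run short.

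All 9 genes passed the filter on low counts. With PELP1 siRNA, PSAT1 and the mitochondrial SHMT2, MTHFD2 and ALDH1L2 fell, the cytosolic SHMT1 rose, and PHGDH, PSPH, MTHFD1 and MTHFD1L did not pass the threshold. Over all genes tested 27.9% passed, 15% as lower and 12.9% as higher, and since the genes were chosen with this contrast known, nothing is read from their 4 lower and 1 higher calls. The median log2 fold change of the 9 was -0.15, against 0.00088 over all genes tested. In 6 of the 9 the libraries of one group all lay on one side of the other group's, as did 64.2% of all genes tested. In bulk RNA, less RNA in every cell and fewer cells holding it cannot be told apart.

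**Figure D1:**
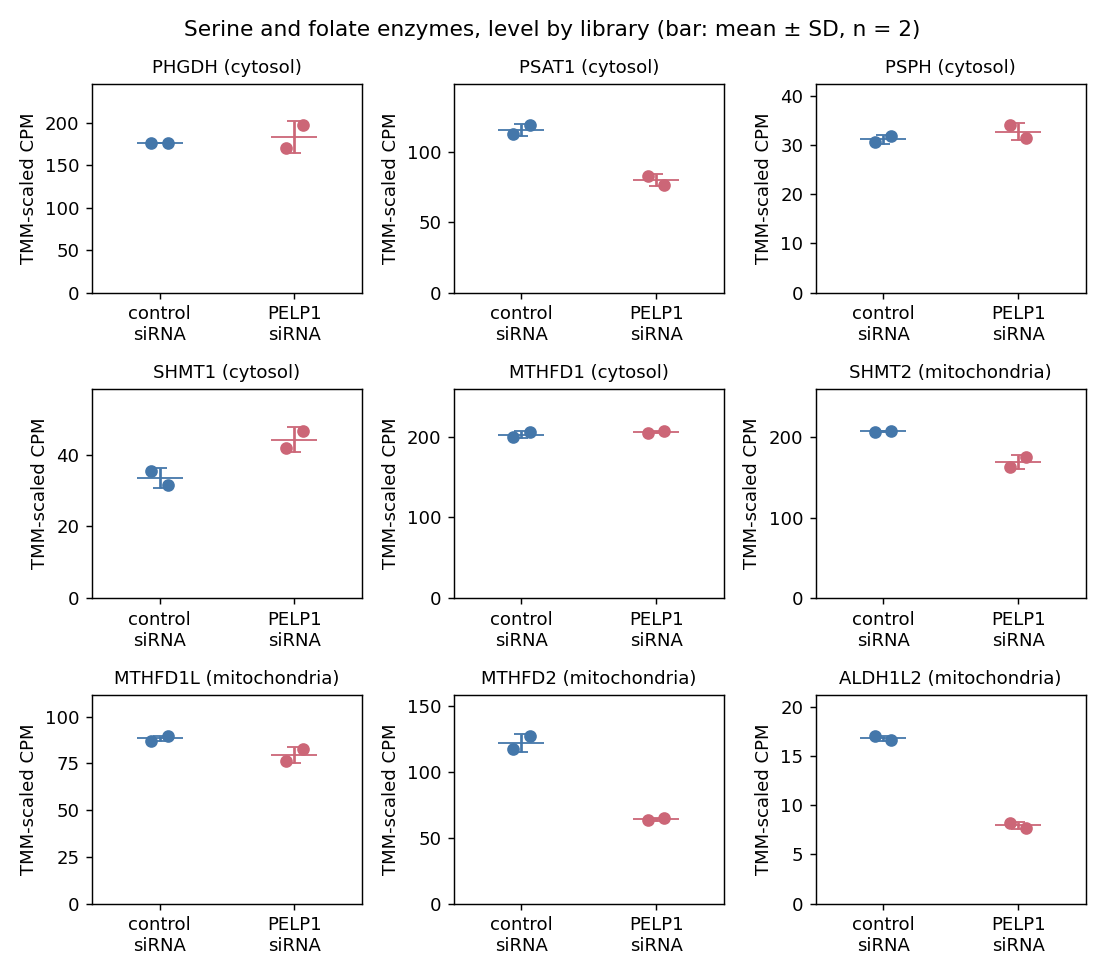
Level of each enzyme in each library (points, TMM-scaled CPM on a linear axis from 0), with the mean and SD of the 2 libraries per group as bars. MTHFD2 and ALDH1L2 lie lowest with PELP1 siRNA relative to control siRNA, SHMT1 lies above its control libraries, and the groups of PHGDH, PSPH and MTHFD1 overlap.

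In serine synthesis the middle enzyme changed. PSAT1, the phosphoserine aminotransferase, held 113 and 119 CPM in the control libraries and 83.0 and 76.9 CPM in the PELP1 siRNA libraries, and both of the latter were lower. It fell by 31.0%, with a log2 fold change of -0.54 (SE 0.074, 95% interval -0.69 to -0.38). PHGDH, the dehydrogenase that opens the pathway, held 176 and 176 CPM with control siRNA and 169.8 and 197 CPM with PELP1 siRNA. One PELP1 siRNA library thus lay under both controls and the other over both. Its log2 fold change was 0.057 (SE 0.071, 95% interval -0.091 to 0.21). That value turned on single libraries: it was 0.16 (SE 0.044), past the threshold, without PELP1 siRNA library 1, and -0.048 (SE 0.045), short of it, without PELP1 siRNA library 2. PSPH, the phosphatase of the last step, held 30.6 and 31.8 CPM against 34.0 and 31.5 CPM, and the groups overlapped. Its log2 fold change was 0.070 (SE 0.092, 95% interval -0.12 to 0.26). Within a library, PSAT1 minus PHGDH on the log2 count scale was -0.64 and -0.57 with control siRNA and -1.03 and -1.35 with PELP1 siRNA.

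In the cytosolic folate pathway SHMT1 rose and MTHFD1 did not pass the threshold. SHMT1, the cytosolic serine hydroxymethyltransferase, held 35.4 and 31.5 CPM in the control libraries and 41.8 and 46.7 CPM with PELP1 siRNA. The groups did not overlap, and the log2 fold change was 0.41 (SE 0.094, 95% interval 0.21 to 0.60), a mean level 32.3% higher. Without control library 2, the lower of the control pair, it was 0.32 (SE 0.15) and no longer past the threshold. MTHFD1, which joins formate to tetrahydrofolate and reduces the product, held 199 and 205 CPM against 205 and 207 CPM. Its log2 fold change was 0.024, and the 95% interval of -0.11 to 0.16 covered changes of either sign.

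The mitochondrial enzymes all had negative fold changes, of very unequal size. MTHFD2, the mitochondrial methylene-tetrahydrofolate dehydrogenase and cyclohydrolase, held 117 and 127 CPM in the control libraries and 63.3 and 65.0 CPM with PELP1 siRNA, from 2271, 2845, 1247 and 1234 counts. It fell by 47.4%, with a log2 fold change of -0.93 (SE 0.075, 95% interval -1.08 to -0.77). ALDH1L2, the formyl-tetrahydrofolate dehydrogenase, held 17.0 and 16.6 CPM against 8.17 and 7.69 CPM, from 329, 371, 161 and 146 counts. It fell by 52.7%, with a log2 fold change of -1.08 (SE 0.12, 95% interval -1.33 to -0.83). Of all genes tested, 1.16% had a lower fold change than ALDH1L2 and 1.98% a lower one than MTHFD2. In both genes the 2 PELP1 siRNA libraries lay far below the controls and close together.

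SHMT2, the mitochondrial serine hydroxymethyltransferase, held 207 and 208 CPM against 163 and 175 CPM, with no overlap. It fell by 18.6%, with a log2 fold change of -0.30 (SE 0.066, 95% interval -0.43 to -0.16). Without control library 1 the value was -0.30 (SE 0.12), and without control library 2 it was -0.29 (SE 0.12), in both cases short of the threshold. MTHFD1L, the mitochondrial formate-releasing synthetase, held 87.3 and 89.5 CPM against 76.4 and 82.6 CPM. Its groups did not overlap, yet its log2 fold change of -0.15 (SE 0.075, 95% interval -0.31 to 0.0012) did not pass the threshold. It was -0.21 (SE 0.059), past the threshold, without PELP1 siRNA library 2.

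**Figure D2:**
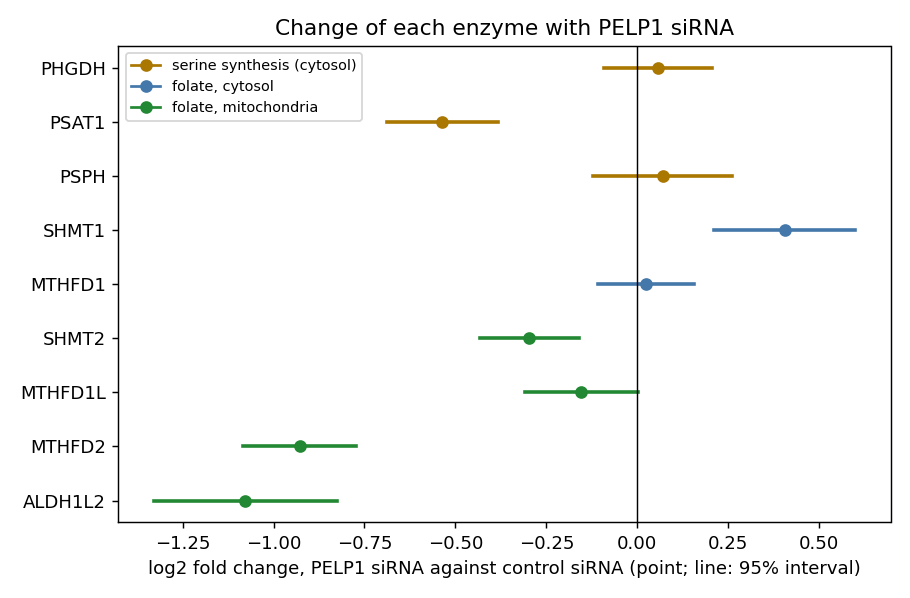
Log2 fold change of each enzyme with PELP1 siRNA against control siRNA (point) and its 95% interval (line), coloured by pathway and compartment. The 4 mitochondrial enzymes lie left of 0, from -1.08 for ALDH1L2 to -0.15 for MTHFD1L, and SHMT1 lies right of it at 0.41.

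Set against the cytosolic enzymes within each library, where the scaling cancels, the mitochondrial enzymes gave the lower values with PELP1 siRNA. For each SHMT1 read there were 5.84 and 6.60 SHMT2 reads in the control libraries and 3.89 and 3.75 with PELP1 siRNA. For each MTHFD1 read there were 0.587 and 0.618 MTHFD2 reads in the controls and 0.309 and 0.314 with PELP1 siRNA. MTHFD1L gave 0.438 and 0.435 reads per MTHFD1 read against 0.373 and 0.399. In all 3 ratios both PELP1 siRNA libraries lay below both controls. ALDH1L2 gave 0.0851 and 0.0806 reads per MTHFD1 read against 0.0399 and 0.0372. The mean log2 count of the 4 mitochondrial enzymes minus that of SHMT1 and MTHFD1 was -0.12 and -0.024 in the control libraries and -0.88 and -0.92 with PELP1 siRNA. This is a change of -0.83, from -0.072 ± 0.067 to -0.90 ± 0.032 (SD, n = 2). The comparison has no test, because the genes were chosen with it in view and 2 libraries against 2 cannot give a p under 0.33 in an exact test.

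**Figure D3:**
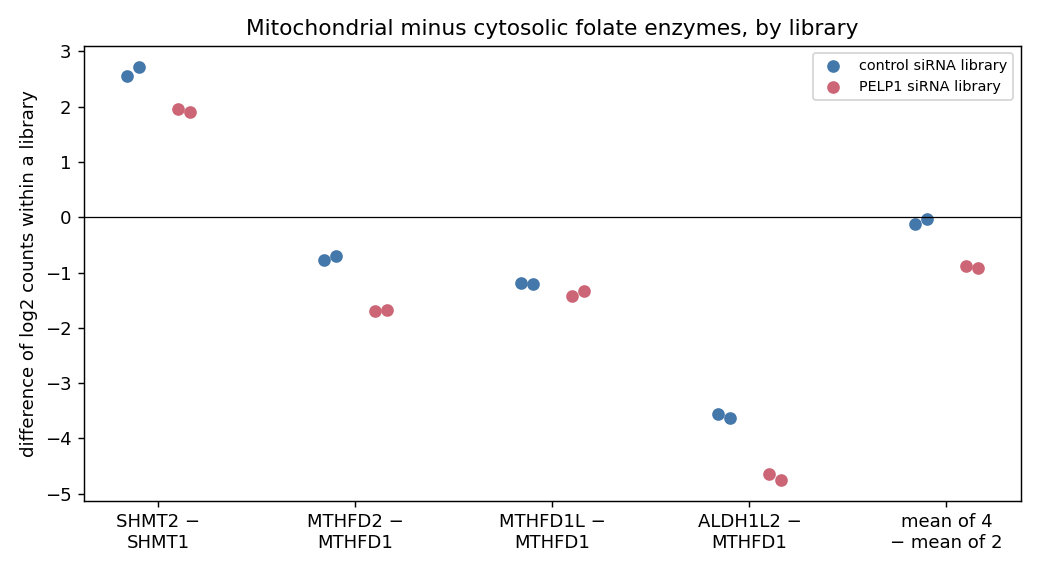
Difference of log2 counts between a mitochondrial and a cytosolic enzyme within each library (points), for 4 pairs and for the mean of the 4 mitochondrial minus the mean of the 2 cytosolic enzymes. In every pair the 2 PELP1 siRNA libraries lie below the 2 control libraries, least so for MTHFD1L against MTHFD1.

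The mitochondrial enzymes also moved unequally among themselves. MTHFD2 and MTHFD1L act in sequence, and MTHFD2 gave 1.34 and 1.42 reads per MTHFD1L read in the control libraries and 0.829 and 0.787 with PELP1 siRNA. Both PELP1 siRNA libraries lay below both controls. MTHFD2 minus SHMT2 on the log2 count scale went from -0.77 ± 0.078 to -1.40 ± 0.047 (SD, n = 2).

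Levels were compared between genes only per kilobase of exon. Over all annotated exon bases PSAT1 (52.6 ± 1.95 CPM per kilobase, SD, n = 2) and SHMT2 (45.2 ± 0.15) led in the control libraries, followed by PHGDH (19.2) and MTHFD1L (18.1). MTHFD1 (11.7), PSPH (11.3) and MTHFD2 (10.7) came next, and neighbours among these 3 overlapped in their single libraries. SHMT1 (4.77) and ALDH1L2 (1.77 CPM per kilobase) came last. The order depended on the length used: all exon bases come to 17357 for MTHFD1 and 9187 for PHGDH, their MANE Select (reference) transcripts to 3154 and 1866. Per kilobase of that transcript, a length added after the values were seen, SHMT2 (96.1), PHGDH (94.4), MTHFD1 (64.2) and PSAT1 (52.6) led. MTHFD2 stood at 27.7 and MTHFD1L at 25.6 CPM per kilobase, then PSPH (15.8), SHMT1 (13.2) and ALDH1L2 (2.26). Under both lengths ALDH1L2 was the lowest and SHMT1 the next lowest in the control libraries. With PELP1 siRNA, MTHFD2 lay below SHMT1 under both lengths. It stood at 5.61 against 6.31 CPM per kilobase over all exon bases, and at 14.6 against 17.5 with the MANE Select length.

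MTHFD2 lies on chromosome 2 of GRCh37, 74413299 to 74444692, plus strand, and ALDH1L2 on chromosome 12, 105413562 to 105501421, minus strand. Both carry, in the 3' UTR, 7-base words that an earlier look at these same fold changes had picked, so that their presence supports nothing. The words are CTCAGTT and GCCTTGA, searched on the transcript strand only. Some of the sites, not all, are shown (GRCh37, word in capitals, 29 bases each), because they lie in the 2 genes of the set that fell furthest.
MTHFD2, chr2:74441653-74441681, plus strand: ttgtcaagcacCTCAGTTacacattcgcc
ALDH1L2, chr12:105418163-105418191, minus strand: tcatcaggaaaGCCTTGAcagacagccct
ALDH1L2, chr12:105414828-105414856, minus strand: ccatcctgactGCCTTGActtcctcaaca

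Of the other members only MTHFD1, which did not pass the threshold, holds a word (GCCTTGA), while PSAT1 and SHMT2, which fell, hold neither. At least 1 of the words stands in the 3' UTR of 25.4% of 19281 annotated genes. The 3' UTRs of MTHFD1 (3522 bases at the longest), MTHFD2 (3323) and ALDH1L2 (4634) are also the longest of the 9. A match describes the letters, and its part in the changes was not tested.

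Promoter windows of 6 members were matched in RefSeq (GRCh38.p14, a single window of 300 bases per gene that ends just past a listed start): PHGDH, PSAT1, SHMT1, MTHFD1, MTHFD1L and MTHFD2. Any other start of these genes was not searched. PSPH, SHMT2 and ALDH1L2 were not matched. The motifs searched, on both strands and with no matches overlapping in these windows, were CCAAT, TGATGNAA (the amino acid response core), CACGTG (the E-box) and TGACGTCA (the cyclic AMP response element). CCAAT was found in 5 of the 6 windows, against 34.6% of 35116 promoters of this length. It was added to the motifs after these windows were seen, so nothing is read from that share. Of the 5, PSAT1 and MTHFD2 fell, SHMT1 rose, and PHGDH and MTHFD1 did not pass the threshold. The MTHFD1L window (40.7% GC), which held none of the motifs, may not lie at the gene's main start, so their absence there says nothing about its promoter. PSAT1 holds it at -113, -83 and -52 from the start, MTHFD2 at -184 and -74. CACGTG was found in MTHFD1 alone, at -15, against 7.26% of all promoters. The letters TGATGNAA (3.62% of all promoters) and TGACGTCA (1.85%) are in none of the 6 windows. Shown are a serine enzyme and a mitochondrial enzyme that fell, and the cytosolic counterpart that did not pass the threshold, with matches of either strand in capitals.
PSAT1 promoter, chr9:78296875-78297174, plus strand: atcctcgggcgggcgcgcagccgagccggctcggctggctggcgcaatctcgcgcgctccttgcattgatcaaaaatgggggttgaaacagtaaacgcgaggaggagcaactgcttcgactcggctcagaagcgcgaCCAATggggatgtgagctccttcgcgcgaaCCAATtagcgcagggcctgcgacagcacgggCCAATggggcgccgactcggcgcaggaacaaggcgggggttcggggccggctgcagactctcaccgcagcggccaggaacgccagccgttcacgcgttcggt
MTHFD2 promoter, chr2:74198365-74198664, plus strand: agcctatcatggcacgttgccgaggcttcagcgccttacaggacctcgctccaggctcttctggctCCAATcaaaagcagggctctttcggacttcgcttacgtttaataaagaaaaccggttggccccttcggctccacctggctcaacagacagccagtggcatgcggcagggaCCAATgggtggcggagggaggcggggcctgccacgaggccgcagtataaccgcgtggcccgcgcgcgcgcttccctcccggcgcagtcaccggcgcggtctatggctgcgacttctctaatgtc
MTHFD1 promoter, chr14:64388103-64388402, plus strand: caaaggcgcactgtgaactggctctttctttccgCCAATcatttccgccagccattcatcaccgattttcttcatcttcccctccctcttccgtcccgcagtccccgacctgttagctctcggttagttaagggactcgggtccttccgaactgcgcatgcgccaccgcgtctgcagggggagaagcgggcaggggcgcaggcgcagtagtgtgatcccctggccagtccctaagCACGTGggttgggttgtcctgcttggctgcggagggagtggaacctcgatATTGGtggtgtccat

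The gene models are those of GENCODE on GRCh37. The serine synthesis genes lie apart, PHGDH on chromosome 1 (120191034 to 120286841, plus), PSAT1 on chromosome 9 (80912041 to 80945009, plus) and PSPH on chromosome 7 (56078744 to 56119297, minus). Of the cytosolic folate genes, SHMT1 on chromosome 17 (18231174 to 18266877, minus) and MTHFD1 on chromosome 14 (64854749 to 64930175, plus) lie on different chromosomes too. The other mitochondrial genes are SHMT2 on chromosome 12 (57623356 to 57628718, plus) and MTHFD1L on chromosome 6 (151186815 to 151423023, plus). Of MTHFD2's exon bases, 14.1% lie opposite other annotated exons, among them those of SLC4A5, which held 187 and 168 counts in the control libraries and 88 and 106 with PELP1 siRNA. The share was 11.1% for MTHFD1, 8.38% for SHMT2, 2.91% for ALDH1L2 and 2.81% for SHMT1, and the other 4 share none. Of the 50-base windows in a member's exons, the length of a read, between 0% (SHMT2) and 14.5% (PSPH) also occur elsewhere in the genome letter for letter. PSAT1 had 13.5%, MTHFD2 8.62%, MTHFD1 7.46% and SHMT1 3.67%, and the others at most 1.32%. The part of shared exons or repeated windows in the changes was not tested.

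The 11 lists of other genes were also written with earlier results of these data known. Their counts and adjusted p-values are therefore a description, and nothing is read from them as a test. Among other mitochondrial folate genes the closest relative of MTHFD2 also fell. MTHFD2L, an isozyme of MTHFD2, held 22.3 and 22.9 CPM against 14.3 and 15.3 CPM (log2 fold change -0.61, SE 0.10, edgeR adjusted p = 1.14e-04). SFXN1, which carries serine into mitochondria, rose from 197 ± 6.65 to 237 ± 14.7 CPM (SD, n = 2; 0.27, edgeR adjusted p = 0.00354), with an adjusted p of 0.219 without control library 1 and 0.0779 without control library 2. Of the 8 tested, these were the only genes past the threshold, and the folate carrier SLC25A32 had a log2 fold change of -0.050. The median of the 8 was 0.055, and over all genes tested 12.9% were called higher and 15% lower. Leaving out PELP1 siRNA library 1 gave 3 rises, and leaving out library 2 gave 2 rises and 2 falls.

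In the list of other folate genes set for the cytosol or nucleus, 1 of 7 tested rose and 1 fell, with a median log2 fold change of 0.10. The list also holds transport genes, and its genes are not all confined to those compartments. Over all genes tested 12.9% were called higher and 15% lower. GGH, the hydrolase that trims polyglutamate tails from folate, rose from 146 to 179.8 CPM (0.30, edgeR adjusted p = 0.00144). FPGS, which adds those tails, fell from 56.5 to 46.3 CPM (-0.29, edgeR adjusted p = 0.0120). Neither passed the threshold without control library 1 (edgeR adjusted p = 0.143 and 0.181) or without control library 2 (0.0655 and 0.226). With PELP1 siRNA library 1 left out, 2 genes rose. Thymidylate synthase, TYMS, stood at a mean of 42.7 CPM in the controls and 44.7 CPM after PELP1 silencing (0.065, edgeR adjusted p = 0.609). ALDH1L1, the cytosolic counterpart of ALDH1L2, had 0 counts in all 4 libraries, which allows a level of up to 0.131 CPM in the deepest and 0.161 CPM in the shallowest.

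Genes that supply the pathway moved in both directions, beside 12.9% called higher and 15% called lower over all genes tested. PGK1, the glycolytic kinase that forms 3-phosphoglycerate, fell from 793 ± 11.9 to 555 ± 6.26 CPM (SD, n = 2; -0.51, edgeR adjusted p = 6.29e-07). ENO2, an enolase further down glycolysis, fell by 0.37 on the log2 scale (edgeR adjusted p = 1.57e-04). PGAM1, ENO1, GAPDH and PKM (listed as PKM2) did not pass the threshold, which makes 2 falls and 0 rises among 6, with a median of -0.080. No rise had an unadjusted p under 0.05, and without PELP1 siRNA library 1 there was 1. PSAT1 takes its amino group from glutamate. The transaminases GOT1 and GOT2 rose by 0.32 each on the log2 scale (edgeR adjusted p = 0.00166 and 5.97e-04), and neither passed without control library 1 (0.166 and 0.102). The glutamine transporter SLC1A5 fell by 0.39 (adjusted p = 1.12e-04). Of the 6 genes listed for glutamate supply 2 rose and 1 fell (3 without PELP1 siRNA library 1), with a median of -0.0069.

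Genes that use serine, glycine and one-carbon units also changed in both directions, beside the same 12.9% higher and 15% lower over all genes tested. In purine synthesis 4 of 13 genes rose and 1 fell, with a median of 0.022. GART, which takes a one-carbon unit from folate, fell from 171 to 137 CPM (-0.32, edgeR adjusted p = 7.27e-04, and 0.101 without control library 2). GMPS, which completes GMP, rose by 0.25 (edgeR adjusted p = 0.00779), and PRPS1, which makes the ribose precursor, by 0.24 (0.0164). PAICS and IMPDH1 were the other rises. The 4 rises became 0 without control library 1 or without control library 2, and 2 with DESeq2 and with a replicate block, and the falls numbered 2 without PELP1 siRNA library 1. Among 11 genes of serine and glycine use, SPTLC3, a subunit that starts sphingolipid synthesis from serine, fell from 142 to 101 CPM (-0.49, edgeR adjusted p = 2.37e-05). The serine racemase SRR rose by 0.35 (edgeR adjusted p = 0.0219, 0.172 without control library 1, 0.24 without control library 2 and 0.128 with DESeq2). These were the only genes of the list past the threshold (median -0.010). Without PELP1 siRNA library 1 the list had 4 rises and 3 falls, and without PELP1 siRNA library 2 it had 2 rises and 4 falls. Of 4 glycine cleavage genes 0 passed the threshold with edgeR, DESeq2 or limma-voom, with a median of 0.17. DLD, a subunit shared with other complexes, was the 1 gene among them with an unadjusted p under 0.05 (0.15, adjusted p = 0.0888), and 1 gene of the list passed when either PELP1 siRNA library was left out.

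In the methionine cycle and transsulfuration 1 of 9 tested genes rose and 4 fell, with a median of -0.13. The shares over all genes tested were 12.9% higher and 15% lower. MAT2A, which makes S-adenosylmethionine, fell from 241 to 188 CPM (-0.36, edgeR adjusted p = 2.70e-04, and 0.0565 without control library 1). CTH, which makes cysteine and is also an ATF4 target, fell by 0.58 (edgeR adjusted p = 0.00286, and 0.0884 without control library 2). CBS, which feeds CTH, was scarce, at 3.35 and 4.64 CPM in the control libraries and 2.69 and 2.21 CPM with PELP1 siRNA. It fell by 0.71 (edgeR adjusted p = 0.0169), and MTRR, which keeps methionine synthase active, by 0.25 (0.0268). Neither CBS nor MTRR passed the threshold with DESeq2. AMD1, of polyamine synthesis, rose by 0.22 (adjusted p = 0.0149, 0.376 without control library 1 and 0.162 without control library 2). With PELP1 siRNA library 1 left out, 2 genes of the list rose. The falls numbered 2 without control library 1, 1 without control library 2 and 2 with DESeq2.

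**Figure D4:**
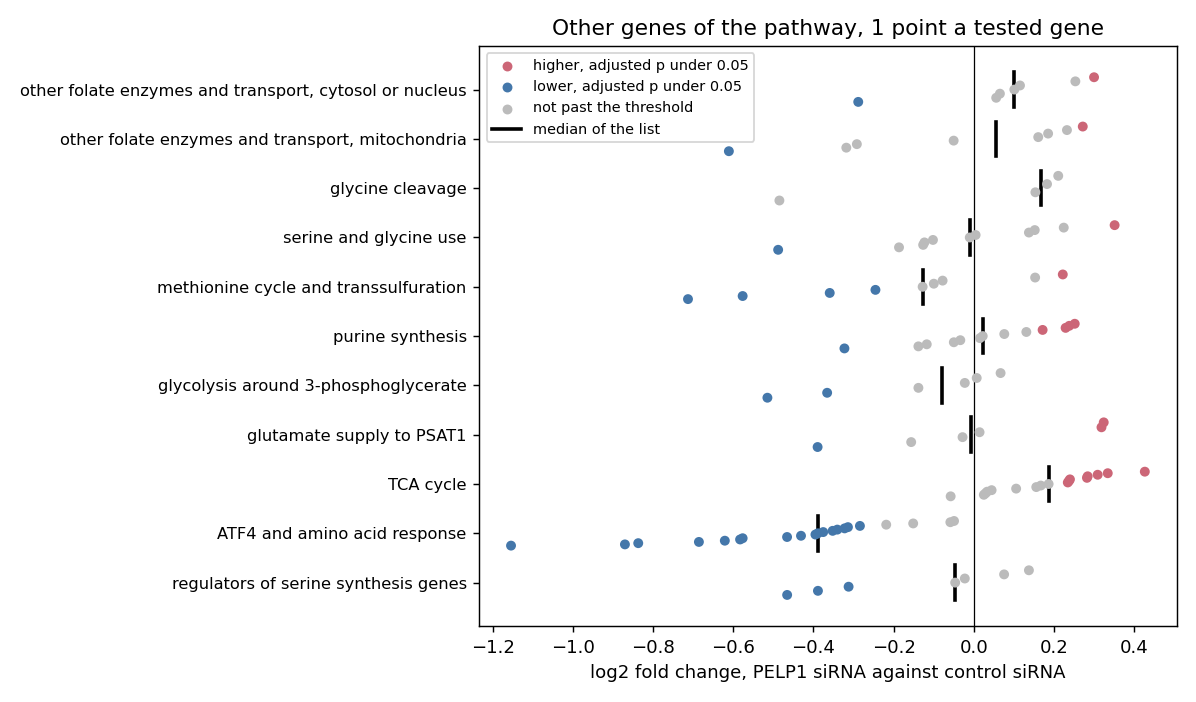
Log2 fold change of each tested gene (1 point) in 11 pathway lists, with the list's median as a black bar and colours for genes past an adjusted p under 0.05. The list of amino acid response genes lies left of 0 with a median of -0.39, and the TCA cycle list mostly right of it with a median of 0.19.

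TCA cycle genes were set beside the mitochondrial folate enzymes as other enzymes of that compartment, with no test of the difference. Both sets were chosen with earlier results of these data known. Among the 8 other mitochondrial folate genes tested 1 rose and 1 fell, with a median log2 fold change of 0.055. Of 17 TCA cycle genes 8 rose and 0 fell, with a median log2 fold change of 0.19, beside 12.9% higher and 15% lower over all genes tested. SUCLA2, a subunit of succinyl-CoA ligase, rose by 0.43 (edgeR adjusted p = 8.94e-04) and SUCLG1, its partner subunit, by 0.33 (5.85e-04). DESeq2 and limma-voom also gave 8 rises and 0 falls, and 0 genes of the list had a negative fold change with an unadjusted p under 0.05. The number of rises moved with the library left out: 0 passed without control library 1 and 2 without control library 2, against 12 when PELP1 siRNA library 1 was dropped and 9 when library 2 of that group was. The fold changes moved less: without control library 1, SUCLG1 had 0.31 (SE 0.13, against 0.067 with all libraries) and SUCLA2 0.41 (SE 0.15, against 0.089).

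The amino acid response genes, which ATF4 is known to drive, were also lower with PELP1 siRNA. Of 21, 17 fell and 0 rose with edgeR, beside 15% lower and 12.9% higher over all genes tested. None of the 21 had a fold change above 0. The median was -0.39. The list was written with earlier results of these data known, so its counts and adjusted p-values are a description. ATF4 itself held 162 and 161 CPM against 115 and 131 CPM (-0.39, edgeR adjusted p = 2.58e-04), and MYC 65.8 and 67.2 CPM against 45.8 and 50.6 CPM (-0.47, adjusted p = 1.68e-04). SLC7A5, an importer of large neutral amino acids, fell by 1.15 on the log2 scale (edgeR adjusted p = 3.84e-11) and the stress-induced hormone STC2 by 0.69 (adjusted p = 1.88e-08). The falls numbered 11 without control library 1, 9 without control library 2 and 13 with DESeq2. Of 7 regulators reported for serine synthesis genes 3 fell, ATF4 and MYC among them, and 0 rose, none with an unadjusted p under 0.05 either, while NFE2L2 (0.076), KDM4C (0.14) and EHMT2 (-0.046) did not pass the threshold. Whether these changes have a part in those of the 9 enzymes was not tested.

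**Figure D5:**
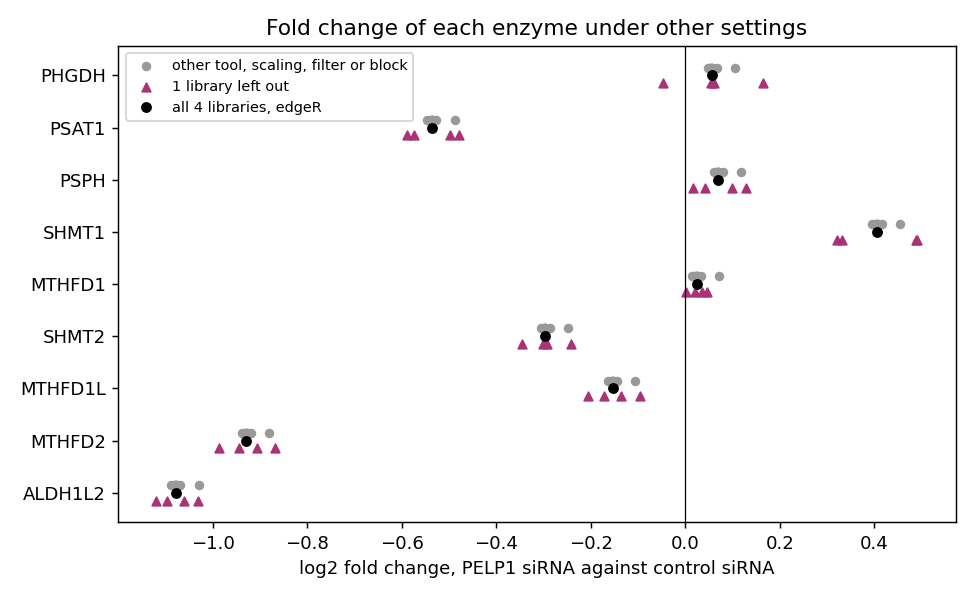
Log2 fold change of each enzyme with all 4 libraries (black), under other tools, scalings, filters or the replicate block (grey), and with 1 library left out (triangles). Values of MTHFD2 stay between -0.99 and -0.87 and those of ALDH1L2 between -1.12 and -1.03, while PHGDH runs from -0.048 to 0.16.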

How the data were processed

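Total RNA libraries (TruSeq, 50 bp single-end, per the labels' protocols) of 2 control and 2 PELP1 siRNA samples were used. The authors ran CASAVA 1.8.2, TopHat2 2.0.8b and HTSeq on hg19, per the submitters' processing notes, with annotation release and strand setting not given in the sources used here. The deposited values are raw read counts per gene symbol. The 5 counter summary lines (36.0 to 37.6% of all counts) were left out.

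Of 23228 symbols 13234 passed filterByExpr (minimum count 10, total 15). The fit was edgeR 4.0.16's robust quasi-likelihood test (R 4.3.3) with TMM factors and group as the only term, and p-values were adjusted over all genes tested. SE is the fold change over the root of F. The pipeline was tested on simulated data. Lengths, overlaps and 3' UTRs came from GENCODE v44lift37. Precision is limited by the spread of 2 libraries per group (biological coefficient of variation 5.23%), and by counting for scarce genes.

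The members and the 11 lists (118 genes, all 118 found) were chosen with earlier results of these data known. Named are the members and, per list, up to 2 genes in each direction with the smallest adjusted p; others (TYMS, DLD, CBS, MTRR and genes short of the threshold) were named after their values were seen. The 5 genes nearest MTHFD2 (mean of 20 CPM or more) were also named. CCAAT was added to the motifs after the promoters were seen. Some list genes and 1 sequence are not reported here. Alternatives were 3 scalings, 2 filters, DESeq2 1.42.0, limma-voom (3.58.1), a fit that is not robust, a replicate block and leaving out each library.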

Additional observations from a re-analysis of the deposited data

How the results depend on the processing

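Over 13 other settings each, 111 of the 117 fold changes of the 9 enzymes kept their sign and side of the threshold. The exceptions all came from leaving out 1 library: SHMT1 and SHMT2 fell short as given in the report, while PHGDH (0.16, without PELP1 siRNA library 1) and MTHFD1L (-0.21, without library 2) passed. PSAT1 (-0.59 to -0.48), MTHFD2 and ALDH1L2 passed in all 13, SHMT1 in 12 and SHMT2 in 11. PHGDH changed sign once, at -0.048 without PELP1 siRNA library 2. Scaling by total counts (median shift of all genes 0.049) added 1 rise to each of 7 lists (both other folate lists, glycine cleavage, serine and glycine use, methionine, purine and TCA cycle). It took the falls from 4 to 3 in the methionine list, from 17 to 15 among amino acid response genes and from 3 to 2 among regulators. Of 312 values for 24 other named genes, 290 kept theirs and 22 fell short of the threshold.

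The change in mitochondrial minus cytosolic level (-0.83) was -0.70 for SHMT2 against SHMT1 alone, -0.56 for MTHFD2 and MTHFD1L against MTHFD1 alone and -0.52 with summed CPM. Leaving out 1 library gave -0.88 to -0.78. Members called higher numbered 0 to 2 and lower 3 to 5 when single libraries were left out. Genes called lower ranged from 943 to 2804 and genes called higher from 523 to 2724 over those fits, and DESeq2 called 1118 higher. These fits take the remaining single sample to vary as the intact pair does.

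The labels number the libraries 1 and 2 in both groups, but same-numbered libraries did not deviate together (correlation over genes -0.029). That single value cannot decide whether they shared a culture or a preparation, and the labels give no pairing beyond the number. With a replicate block 1613 genes were higher and 1968 lower, and the members' calls were 4 lower and 1 higher.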

Other observations

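Among genes of the lists with 0 counts in all 4 libraries were MTAP, of methionine salvage, and MAT1A, the liver form of the S-adenosylmethionine synthetase, which allows up to 0.131 to 0.161 CPM per library. The folate receptors FOLR1, FOLR2 and FOLR3 and the proton-coupled carrier SLC46A1 were too low to be tested, while the reduced folate carrier SLC19A1 averaged 19.9 CPM in the controls and 23.7 CPM after PELP1 silencing (log2 fold change 0.25, edgeR adjusted p = 0.0833). The mitochondrial glycine cleavage genes GLDC, AMT and GCSH stood at 1.33, 1.28 and 0.945 CPM with control siRNA, against 172 CPM for DLD.

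The 5 genes whose centred log2 CPM over the 4 libraries lay nearest to those of MTHFD2, of 7951 compared, were MCCC2, KIAA1279, MTPAP, EVI2A and SPP1, at Euclidean distances of 0.022 to 0.051. Their log2 fold changes ran from -0.95 to -0.89. With 4 libraries in 2 groups this likeness mostly restates the fold change.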
